A study of Oryza sativa with 6 samples.

Results

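The genes examined here encode the light receptors of rice and COP1, the regulator on which several of them act. They comprise 3 phytochromes (PHYA, PHYB and PHYC), 3 cryptochromes (CRY1a, CRY1b and CRY2), 3 phototropins (PHOT1a, PHOT1b and PHOT2) and COP1, taken by locus number for their known function; no peak value entered the rule, although earlier results of these data were known when the set was drawn up. All 10 have at least 1 peak in a deposited list of PIF4-GFP peaks, where they account for 18 of 29513 peaks and 10 of 24592 loci. Of the 1177 genes in the deposited expression tables, 77.4% had a peak of some class, and of the 194 among them that span at least 5000 bp 82.5% did. The series holds 6 leaf samples, 3 labelled PIF4-OE with the genotype PIF4-GFP and 3 labelled mock with the genotype GFP. All came from potted rice plants 3 weeks old that were grown under fluctuating light together with drought stress, so no group without the stress is included. The sources used here do not give the promoter that drives the transgene, the source species of PIF4 or whether the numbers in the genotype labels stand for separate lines. The series is typed as genome binding, while its samples are labelled as total RNA.

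Phytochromes sense red and far-red light and, once activated, bind PIF proteins, which are bHLH transcription factors, and bring about their degradation. Cryptochromes and phototropins sense blue light: cryptochromes act on growth and flowering, and phototropins on phototropism, chloroplast movement and, as known from Arabidopsis, the opening of stomata. COP1 is a ubiquitin ligase that marks light-promoting factors such as HY5 for degradation in the dark, and active phytochromes and cryptochromes restrain it. The peaks therefore bear on whether a factor downstream of phytochromes has listed sites at the genes of the receptors themselves.

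The peak list is 1 list without scores, replicates or peaks of the GFP mock, so its values carry no replicate error and the groups cannot be compared in it. The sources used here do not say whether its peaks come from 1 PIF4-GFP library or several. Coordinates are those of the list, counted from 1, and its rice build is not stated. Distances run from the transcription start to the centre of a peak and are negative upstream of it. The start itself was worked back from them, to within 1 bp if the list takes the midpoint of a peak as its centre. None of the 10 genes is among the 1177 genes of the expression tables (0 rows), so transcript levels of these genes are not analysed here. Those 1177 genes, mostly transcription factors, serve below as a set of genes that includes ones without a peak. Among them, 48 share a locus number with another, and each was counted by itself.

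Peaks lay at the start of most of the genes, but the classes differed between the receptor families and also within them. A peak classed as promoter was listed at 8 of the 10 genes (80%, Wilson 95% interval 49.0 to 94.3%), which is near the 71.8% of the 1177 table genes. Among loci with any listed peak the share was 93.3%, so a promoter peak does not set these genes apart. A single peak is also the usual case, as 17.7% of listed loci had 2 or more. The phytochromes and COP1 had a peak at the start and another at the transcription end, the cryptochromes had a single peak at the start, and PHOT1a and PHOT1b had peaks inside the gene and none listed at the start. PHOT2 had a peak at the start and another in an intron. In the list the class goes with the distance of the centre: promoter peaks were centred at most 1999 bp downstream of a start. Exon peaks were centred at least 2001 bp downstream and intron peaks at least 2002 bp. The contrast in class between promoter peaks and exon or intron peaks thus depends on this limit. In these genes, the exon and intron peaks were centred 4002 to 6712 bp downstream of their listed start. None of them covered that start, while all 8 promoter peaks did.

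**Figure D1:**
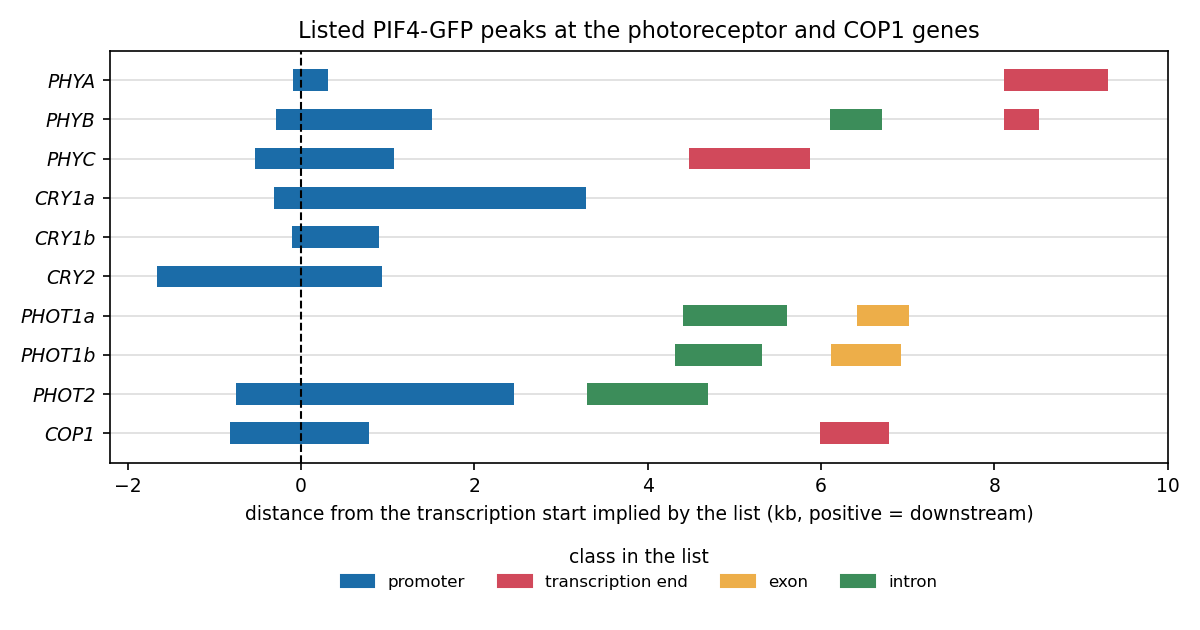
Listed peaks of the 10 genes, drawn as bars from edge to edge against the distance from the transcription start implied by the list (kb, dashed line at 0) and coloured by class. The phytochromes and COP1 have a bar at each end of the gene, the cryptochromes 1 bar at the start, and PHOT1a and PHOT1b a pair of bars between 4 and 8 kb; the intron bar of PHOT2 is placed from the start of another transcript than its promoter bar.

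Among the phytochromes, PHYA (LOC_Os03g51030), the receptor of continuous far-red light, had the narrowest of the 8 promoter peaks. It was 400 bp wide, on chromosome 3 from 29175800 to 29176199, and reached from 87 bp upstream to 312 bp downstream of the start. Of all 23278 promoter peaks, 0.503% were narrower and 94.6% were wider. The other PHYA peak, 1200 bp wide from 29166800 to 29167999, was classed at the transcription end and centred 8713 bp downstream of the start. PHYA was thus the one gene of the 10 with a wider peak at its end than at its start.

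PHYB (LOC_Os03g19590), the main red light receptor in light-grown plants, had 3 peaks, the most of the 10 genes. Its promoter peak on chromosome 3 from 11019800 to 11021599 was 1800 bp wide and centred 608 bp downstream of the start. An intron peak of 600 bp from 11026200 to 11026799 was assigned to intron 3 of 3. A peak of 400 bp at the transcription end, from 11028200 to 11028599, followed after a gap of 1400 bp. The peaks therefore became narrower from the start of PHYB to its end. Among table genes 2.29% had 3 or more peaks, and among those spanning at least 5000 bp 9.28% did.

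PHYC (LOC_Os03g54084), which in rice acts with the other phytochromes in red and far-red responses, had a promoter peak spanning 1600 bp (chromosome 3, 31004200 to 31005799) and centred 275 bp downstream of the start. Its peak at the transcription end, from 31009200 to 31010599, was 1400 bp wide and centred 5175 bp downstream. The PHYC end peak was the widest of the 4 end peaks in the set, and the PHYB end peak the narrowest.

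The COP1 gene (LOC_Os02g53140) had the same pair of classes as PHYA and PHYC. Its promoter peak on chromosome 2 from 32532800 to 32534399, 1600 bp wide, was centred 16 bp upstream of the start, the closest to a start in the set. The peak at its end, from 32526800 to 32527599, was 800 bp wide and centred 6384 bp downstream. A promoter and an end peak together were thus listed at 4 of the 10 genes (40%, Wilson 95% interval 16.8 to 68.7%). The share was 4.84% of the table genes and 6.65% of all listed loci. It was 6.19% of the 194 table genes that span at least 5000 bp. Both this call and that limit were chosen after the data were seen, so the interval is not a test of the pairing. When every peak had to be at least 1000 bp wide, the pair remained at 1 gene, PHYC, against 1.27% of the table genes; PHYA lost it by its promoter peak of 400 bp, and PHYB and COP1 by their end peaks of 400 and 800 bp.

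An end peak of one gene can lie near the start of the next. The PHYA end peak was centred 2180 bp upstream of the listed start of LOC_Os03g51020, and the PHYB end peak 2437 bp upstream of that of LOC_Os03g19600, a gene on the same strand in each case. Both neighbours have a promoter peak of their own in the list, separated from the end peak by 1200 bp and 1600 bp. Behind PHYC the start of the next listed locus was 7550 bp away, on the opposite strand, and behind COP1 it was 10044 bp away. To which of the adjoining genes such a peak pertains was not tested.

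The cryptochromes each had 1 peak, at the start, and these differed in width and position. CRY1a (LOC_Os02g36380) had the widest peak of the set, 3600 bp on chromosome 2 from 21976200 to 21979799. It ran from 309 bp upstream to 3290 bp downstream of the start and was centred 1490 bp downstream, and 8.41% of all promoter peaks were wider. CRY1b (LOC_Os04g37920), its close homologue on chromosome 4, had a peak of 1000 bp from 22549800 to 22550799, centred 398 bp downstream. CRY2 (LOC_Os02g41550), which promotes flowering in rice, had a peak of 2600 bp on chromosome 2 from 24914200 to 24916799 that was centred 363 bp upstream and reached 1662 bp upstream of the start, the farthest in the set. The CRY1a peak thus extended mainly into the gene and the CRY2 peak mainly away from it.

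The phototropin pair PHOT1a and PHOT1b had no listed promoter peak, and their peaks matched in class and order. PHOT1a (LOC_Os11g01140) had an intron peak spanning 1200 bp (chromosome 11, 83600 to 84799) and an exon peak spanning 600 bp (85600 to 86199). PHOT1b (LOC_Os12g01140) had an intron peak spanning 1000 bp (chromosome 12, 79600 to 80599) and an exon peak spanning 800 bp (81400 to 82199). In each gene the list assigned the intron peak to intron 1 of 22 and the exon peak to exon 2 of 23. The bounds of these introns and exons were not used here. The centres lay 5012 and 6712 bp downstream of the PHOT1a start and 4818 and 6518 bp downstream of the PHOT1b start, an offset of 194 bp for either peak.

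The 2 peaks of each gene were separated by 800 bp, the smallest gap between any neighbouring peaks in the list, and together spanned 2600 bp in each. Of the 4921 pairs of neighbouring peaks at one locus, 12.4% had this gap. Of all 1566 intron peaks 19.7% were assigned to a first intron, and of all 2227 exon peaks 20.1% to a second exon. The next call was not planned and follows the classes seen at PHOT1a and PHOT1b, so its shares are a description only. An exon and an intron peak without a promoter peak occurred at 42 of the 24592 listed loci (0.171%), PHOT1a and PHOT1b among them. The same was listed at 4 of the 1177 table genes (0.340%) and at 2 of the 194 that span at least 5000 bp (1.03%). The wider call of exon or intron peaks without a promoter or end peak held for 3.44%, 3.99% and 8.76%, in the same order. PHOT1a and PHOT1b lie in the ends of chromosomes 11 and 12, which are duplicates of each other in rice. Reads shared by such copies can be placed at either, and the sources used here do not say how the authors placed them. The peaks of PHOT1a and PHOT1b can therefore not be taken as independent of each other. The symbols follow the choice of genes made here; the RefSeq table (assembly ASM3414082v1) has PHOT1A on chromosome 12 and PHOT1B on chromosome 11.

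PHOT2 (LOC_Os04g23890), the phototropin that in Arabidopsis mediates the chloroplast avoidance of strong light, differed from them in having a promoter peak. That peak, 3200 bp on chromosome 4 from 13652400 to 13655599, was centred 856 bp downstream of the start, and 11.4% of promoter peaks were wider. Its intron peak, 1400 bp from 13649800 to 13651199, was assigned to intron 6 of 22 and followed after a gap of 1200 bp. The list assigned the promoter peak to transcript LOC_Os04g23890.3 and the intron peak to transcript LOC_Os04g23890.2, whose implied starts are 354 bp apart. The distance of 4002 bp given for the intron peak is therefore not on the same scale as that of the promoter peak. In the other 6 genes with several peaks, each gene's distances led back to a single start.

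All 8 promoter peaks covered the implied start, as did 87.2% of all promoter peaks. Their median width was 1700 bp (range 400 to 3600 bp) against 1400 bp over all promoter peaks, whose quartiles are 800 and 2200 bp. The peaks of CRY1a, PHOT2 and CRY2 lay above the upper quartile and that of PHYA below the lower. The centres were downstream of the start in 6 of 8, against 69.2% of all promoter peaks, with a median of 336.5 bp against 198 bp. Reaching at least 200 bp to both sides of the start was seen for 6 of 8, with PHYA and CRY1b the exceptions, and for 61.7% of all promoter peaks. In position and coverage the promoter peaks of these genes were thus near those of the list as a whole.

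**Figure D2:**
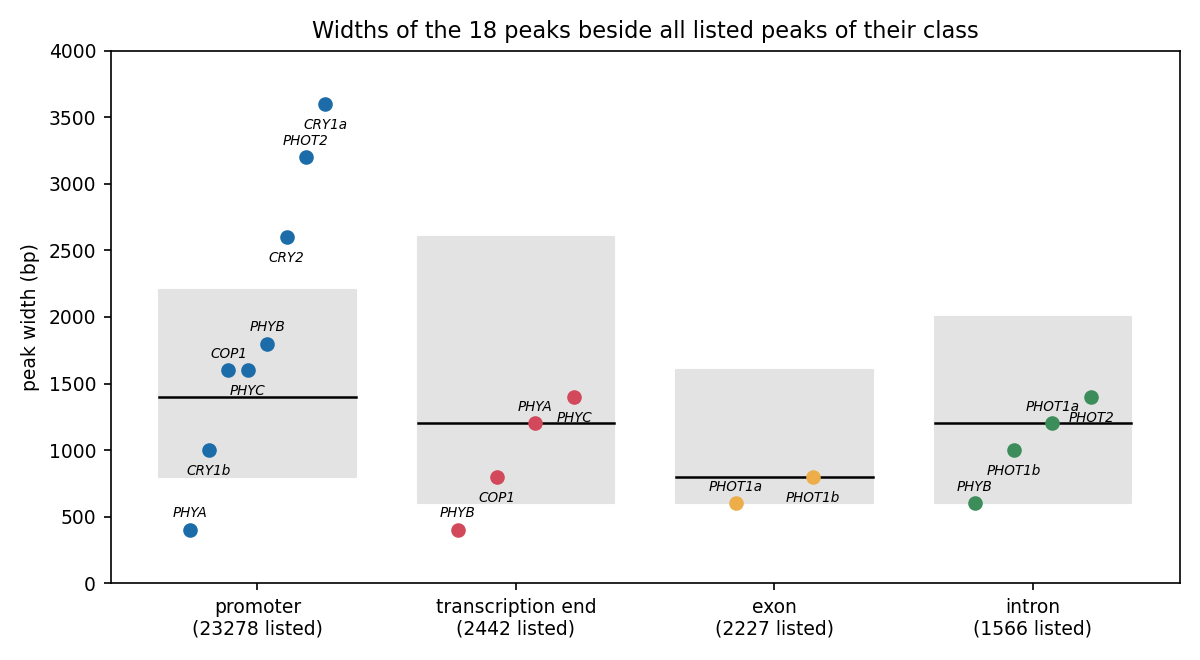
Width (bp) of each of the 18 peaks, labelled by gene and grouped by class, with the median (line) and quartiles (grey band) of all listed peaks of that class. Promoter peaks run from 400 bp at PHYA to 3600 bp at CRY1a, while the 10 peaks of other classes stay at 1400 bp or less.

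The 10 peaks outside the promoter class were of ordinary or low width. The 4 end peaks had a median of 1000 bp (400 to 1400 bp) against 1200 bp over all 2442 end peaks, and the 4 intron peaks a median of 1100 bp (600 to 1400 bp) against 1200 bp over all. The exon peaks of PHOT1a and PHOT1b were 600 and 800 bp wide, against a median of 800 bp. The end peaks of these genes were centred 5175 to 8713 bp from the start, against a median of 4250 bp over all end peaks. An exon or intron peak was listed at 4 of the 10 genes (PHYB and the phototropins), against 14.6% of table genes and 34.5% of those spanning at least 5000 bp.

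More than 1 peak was listed at 7 of the 10 genes (70%, Wilson 95% interval 39.7 to 89.2%). That call, too, was chosen after the data were seen. The interval treats the 10 chosen genes as independent, which PHOT1a and PHOT1b cannot be taken to be. Without PHOT1b the count was 6 of 9. The share with more than 1 peak was 16.8% among table genes, 34.5% among table genes spanning at least 5000 bp and 17.7% among all listed loci. Every listed locus has a peak by definition, while some table genes have none, and the part of gene length in the members' count was not tested. The distances in the list bound the lengths loosely: end or exon peaks of PHYA, PHYB, PHYC, COP1, PHOT1a and PHOT1b were centred 5175 to 8713 bp from the start, which makes the long table genes the nearer background for them. The spans of the 10 genes were not used here. The count also depends on where one peak ends and the next begins. With peaks of a gene joined across gaps of at most 1000 bp, the pairs of PHOT1a and PHOT1b merged and 5 genes had 2 or more, against 13.0% of table genes and 30.4% of the long ones. With gaps of at most 2000 bp, 4 genes did, the phytochromes and COP1, against 7.99% of table genes and 25.8% of the long ones.

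**Figure D3:**
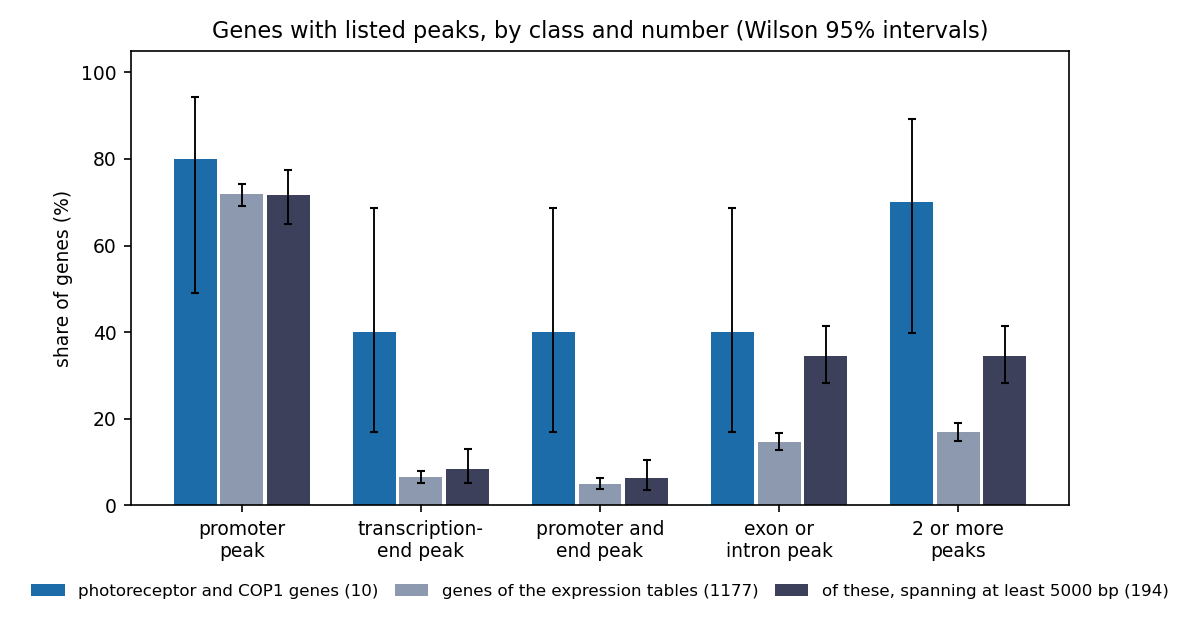
Share of genes (%) with each kind of listed peak for the 10 photoreceptor and COP1 genes, the 1177 table genes and the 194 table genes spanning at least 5000 bp. Bars are shares with Wilson 95% intervals, which cover counting error only. Promoter shares are close (80, 71.8 and 71.6%), and end peaks are listed at 40, 6.46 and 8.25%. The calls other than the promoter peak were not among those planned.

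The surroundings of the genes also differed. Within 50 kb on either side of the start, the 10 genes had between 3 and 15 listed peaks of other loci, with a median of 9.50 against 9 (quartiles 6 and 11) over all listed loci. PHYB had the most, 15 peaks of 11 loci, and PHOT2 the fewest, 3 peaks of 2 loci. The nearest listed peak upstream of PHOT2 was 74000 bp away and that upstream of CRY2 34000 bp away. That upstream of COP1 was 1400 bp away, at the promoter of LOC_Os02g53150. Of the numbers in the peak names, which rise with position, 11 are missing in the PHOT2 stretch and 6 in the CRY2 stretch. Whether these stand for peaks left out of the list is not stated.

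**Figure D4:**
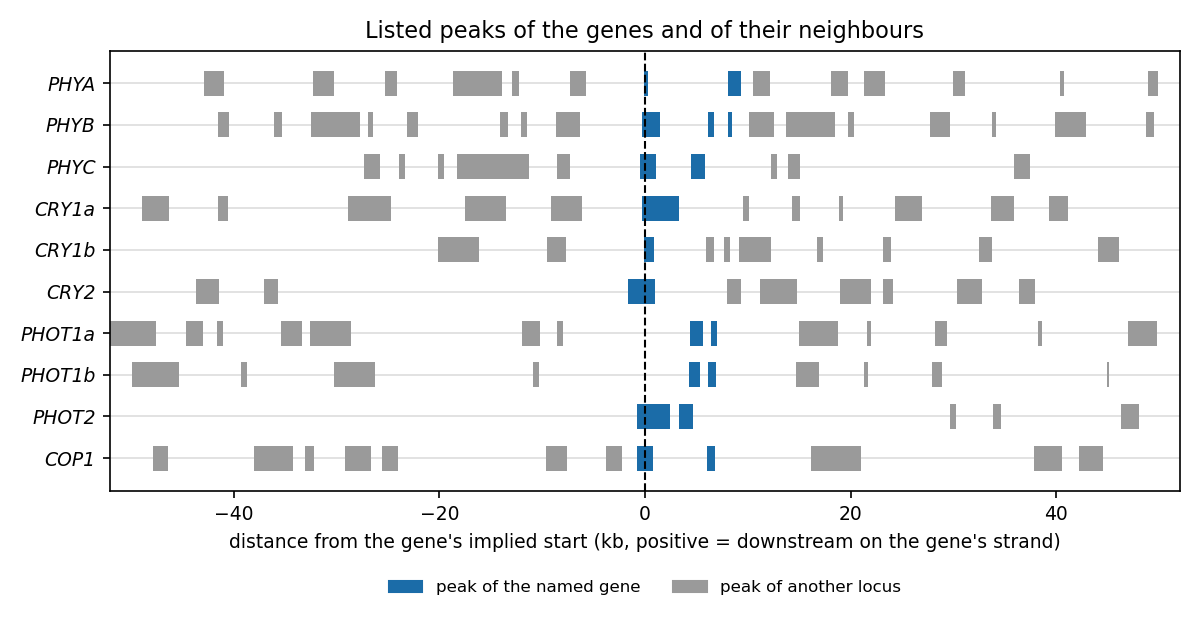
Listed peaks within 50 kb of the implied start of each gene (kb, positive downstream on the gene's own strand), drawn at their width, with the gene's own peaks in blue and those of other loci in grey. PHOT2 has 3 listed peaks of other loci, all downstream, and PHYB has 15.

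Other genes of light signalling could be counted among the table genes, where descriptions name 31 of them. A promoter peak was listed at 20 of the 31 (64.5%, Wilson 95% interval 46.9 to 78.9%), against 71.8% of all table genes. Of the 15 genes with a FAR1 domain, named after the Arabidopsis factor of phytochrome A signalling, 9 had a promoter peak and 0 had a peak of any other class, where 6.46% of all table genes had an end peak and 14.6% an exon or intron peak. Of the 12 genes with B-box zinc fingers, a family that includes substrates of COP1 in Arabidopsis, 10 had a promoter peak. They included the constitutive flowering repressor Os02g0610500, with 5400 bp on chromosome 2 from 23988600 to 23993999, centred 1549 bp downstream, as the widest. The B-box gene Os04g0540200 had an end peak of 7800 bp and no promoter peak. An exon or intron peak was listed at 1 of the 12, Os09g0240200. Besides its promoter peak it had intron peaks of 800 and 4200 bp and an exon peak of 400 bp. Of the genes similar to PIF3, PIF4, HFR1 and HY5, 1 of 4 had a promoter peak, the HY5-like Os02g0203000. A peak of any class was listed at 2 of the 4. The HY5-like gene also had an exon peak, and the other gene had an intron peak of 2200 bp centred 2091 bp downstream. Having 2 or more peaks was recorded for 2 of the 31 (16.8% of all table genes), and having a promoter and an end peak together for 0 (4.84% of all table genes). The description terms for other partners of the receptors and COP1 (such as SPA1, DET1, COP9 signalosome, NPH3 or photolyase) matched 0 table genes, so those partners are not analysed here.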

How the data were processed

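The members and gene lists were chosen with earlier results of these data known. Per the submitters' processing notes, Bowtie 0.12.2, HISAT2 2.0 and StringTie 1.3.0 were used, with no role given; their build, mm8, is one of mouse, and the locus numbers are of rice. The deposited peak list gives position, class and distance and no score or p-value; the sources used here do not name the peak caller, its threshold or its control. All widths but 1 are multiples of 200 bp, which limits how finely an edge is placed. The deposited tables hold FPKM values, of which only gene identifiers, positions and descriptions were used. Each peak was matched to its gene through the locus number (Python 3.11.15, pandas 2.3.3, scipy 1.17.1). The start of a gene was the peak centre less the listed distance, which lay within 500 bp of the start in the tables for 81.8% of 1140 pairs. On simulated peaks made with the same midpoint rule this step returned the starts. That outcome was fixed by the rule, so it checks the arithmetic only and not how the list places its centres. With 1 list and no replicates, no test between samples was made; Wilson intervals cover counting error only. No sequences were used.

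Named were the 10 genes and, of the light-signalling table genes, those with a name of their own. Os04g0540200 and Os09g0240200, and the limits of 5000 bp span, 200 bp reach and joined gaps, were chosen after the values were seen. The counts by number of peaks, and those of classes other than promoter, alone or combined, were not among the planned results.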

Additional observations from a re-analysis of the deposited data

How the results depend on the processing

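No paired analysis was possible because the results come from 1 peak list with no values per sample, and for the same reason no replicate could be left out. The count of 8 genes with a promoter peak was 10 with any class, 7 with peaks at least 1000 bp wide, 8 with peaks covering the start, 7 with centres within 1000 bp of it and 8 of 9 without PHOT1b. The background of 845 table genes became 911 with any class and 679 with the width limit. The median width of 1700 bp was 1200 bp over all 18 peaks. The counts and alternatives that follow were chosen after the data were seen. Leaving out PHOT1b gave 6 of 9 genes with 2 or more peaks. The count of 7 genes with 2 or more peaks fell to 4 when gaps of at most 2000 bp were joined; that of 4 genes with a promoter and an end peak fell to 1 with the width limit, since the end peaks of PHYB and COP1 and the start peak of PHYA are narrower; and the table share with 2 or more peaks of 16.8% was 34.5% in genes spanning at least 5000 bp. The motif search in promoters was not run, as no promoter sequences were used. Depth is unknown for the peaks, so a gene without a listed promoter peak cannot be told from one below detection.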

Other observations

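Peak numbers rise with position on all 12 chromosomes, so a number missing from the list falls between its listed neighbours. The highest number is 60035, against 29513 listed peaks. All those listed are classed as promoter, transcription end, exon or intron, and no intergenic class occurs. Whether a missing number stands for a peak left out of the list, and of which class, is not stated in the files. No such number lay between the peaks of any of the 7 genes with several peaks. That share was not counted over all loci with several peaks, so whether it is the usual case is not known. Between a gene's own peaks and the next listed peak upstream, at least 1 number was missing for 8 of the 10 genes, against 50.7% of listed loci, and CRY1a and COP1 had 0. On the downstream side this was so for 2 genes, PHOT2 and COP1, against 43.0% of listed loci. Upstream of PHOT2 11 numbers were missing and upstream of CRY2 6.

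For PHOT1a, 2 missing numbers fall in the stretch from 7988 bp upstream of its start to 4413 bp downstream, and for PHOT1b 3 fall between 10282 bp upstream and 4319 bp downstream. If these numbers stand for peaks, the list does not show whether one lay at the start of either gene.

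Besides PHOT1a and PHOT1b themselves, 13 locus numbers have a listed peak within 50 kb of one or the other, and 4 of these are listed within that distance of both. The remaining 9 are listed near only one of them. Only equal numbers within 50 kb were matched, so this does not show that the 9 lack a like peak on the other chromosome. For example, LOC_Os11g01050 and LOC_Os12g01040 count among the 9. Each has a promoter peak of 4600 bp, centred at -663 and -692 bp from the start. Of the 4, 3 have the same classes on chromosomes 11 and 12, and whether loci of the same number are copies of each other was not tested. The loci numbered 01090 have an exon peak of 4000 bp on each, those numbered 01170 a promoter peak of 400 bp on each, and those numbered 01180 promoter peaks of 1200 and 1000 bp. The loci numbered 01200 differ, with an exon peak of 400 bp on chromosome 11 and a promoter peak of 200 bp on chromosome 12.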
